A study of Mus musculus with 12 samples.

Results

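The Dlk1-Dio3 cluster is a stretch of mouse chromosome 12 whose imprinted genes are active only or mainly on 1 parental chromosome. Its 6 best-known genes were followed here. Meg3, Rian and Mirg are noncoding RNAs made from the maternal chromosome. Dlk1, Rtl1 and Dio3 are protein-coding genes read only or mainly from the paternal one. All 6 were listed, and were found by symbol among the 36902 Ensembl identifiers of each deposited table. Only Meg3, Mirg and Dio3 had values; Rian, Dlk1 and Rtl1 were NA in all 12 tables, as were 3342 of the 36902 identifiers (9.06%). The genes were selected on their counts in these 12 libraries, which were already known, so their levels and differences are given as descriptions. Adjusted p-values come from fits over all genes and lend no support to that choice.

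The cluster works as a switch between parents. A methylated control region between Dlk1 and Meg3 keeps the noncoding RNAs silent on the paternal chromosome. The same region, unmethylated on the maternal one, lets them be transcribed while the protein genes stay wholly or mostly quiet. Meg3 is a long noncoding RNA that is abundant in brain neurons, Rian is a host of small nucleolar RNAs and Mirg a host of microRNAs. Dlk1 encodes a membrane protein related to the Delta ligands of Notch, Rtl1 a protein derived from a retrotransposon, and Dio3 the deiodinase that inactivates thyroid hormone. In mouse pluripotent stem cells, the maternal RNAs are known to differ in activity between cell lines.

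Poly(A) RNA was sequenced, with strand-specific library preparation, from glutamatergic neurons differentiated from mouse embryonic stem cells and taken at day 21 in vitro. Wild-type (WT) neurons and Daam1-MIC_KO neurons (KO), which lack a microexon of the formin gene Daam1, each received water as vehicle or 10 µM of the ROCK inhibitor Y-27632 for 2 h. Each genotype was represented by 3 labelled cell lines, and each line gave 1 vehicle and 1 inhibitor library, so that the 4 groups hold 3 libraries each. The labels do not say how the lines were derived, nor that they were separate clones, so p-values measure the spread between these libraries. The description of the whole series speaks of hippocampus from adult mice, and the sample labels were followed instead. Daam1 lies on chromosome 12 as well, and 37.5 Mb separate its end from the start of Meg3. Whether that shared chromosome bears on the differences below was not tested, and counts per gene cannot show the loss of a microexon.

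Libraries held 23253566 to 35012561 counts. The KO inhibitor library of line 3 stood apart from the rest: its median correlation with the other libraries (Pearson's r of log2 CPM across genes) was 0.854, against 0.953 to 0.986 for the remaining 11. Of the 9 glutamatergic markers, 9 reached 1 CPM in at least 1 WT vehicle library and 7 in at least 1 KO vehicle library. With inhibitor, 8 did so in either genotype. Glutamatergic markers summed to 236 CPM in the KO inhibitor library of line 3 and to 755 to 1084 CPM in the others. Pan-neuronal markers summed to 1044 CPM against 3202 to 4777 CPM. GABAergic markers reached sums of similar size, at 268 CPM against 560 to 768 CPM, and astrocyte markers 1385 CPM against 599 to 854 CPM. The name glutamatergic is therefore that of the sample labels. WT line 2 in vehicle and WT line 3 with inhibitor were most like each other (r of 0.985), despite differing in line and treatment. So were KO line 3 in vehicle and KO line 2 with inhibitor (r of 0.993). Whether labels were exchanged within either pair was not tested. Every comparison within lines 2 and 3 of either genotype takes the labels as given.

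From Dlk1 to Dio3 the cluster spans 828 kb (GRCm38), and the annotation places 118 genes there. Meg3 (ENSMUSG00000021268) runs from chr12:109541001-109571726 and Mirg (ENSMUSG00000097391) from chr12:109729764-109749460, both on the plus strand. Dio3 (ENSMUSG00000075707) lies at chr12:110279068-110281097, also on the plus strand, 530 kb beyond the end of Mirg. The genes with no values lie between or before them, with Dlk1 at chr12:109452823-109463336, Rtl1 at chr12:109589193-109600330 on the minus strand and Rian at chr12:109603940-109661716. Of the 118 annotated genes, 47 had counts, 56 were NA and 15 were not listed. The only ones with a count above 0 in any library were Meg3, Mirg, Dio3 and B830012L14Rik, a noncoding RNA gene between Rian and Mirg that had at most 2 counts. All 23 small nucleolar RNA genes were NA, and 43 of 67 microRNA genes were listed at 0 in all 12 libraries, which were made from poly(A) RNA and do not sample mature microRNAs. The gene Gm26906 is annotated on the opposite strand over the 3′ end of Meg3 and was NA. Whether reads were counted by strand is not given in the sources used here, so reads from that strand cannot be told apart from those of Meg3.

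**Figure D1:**
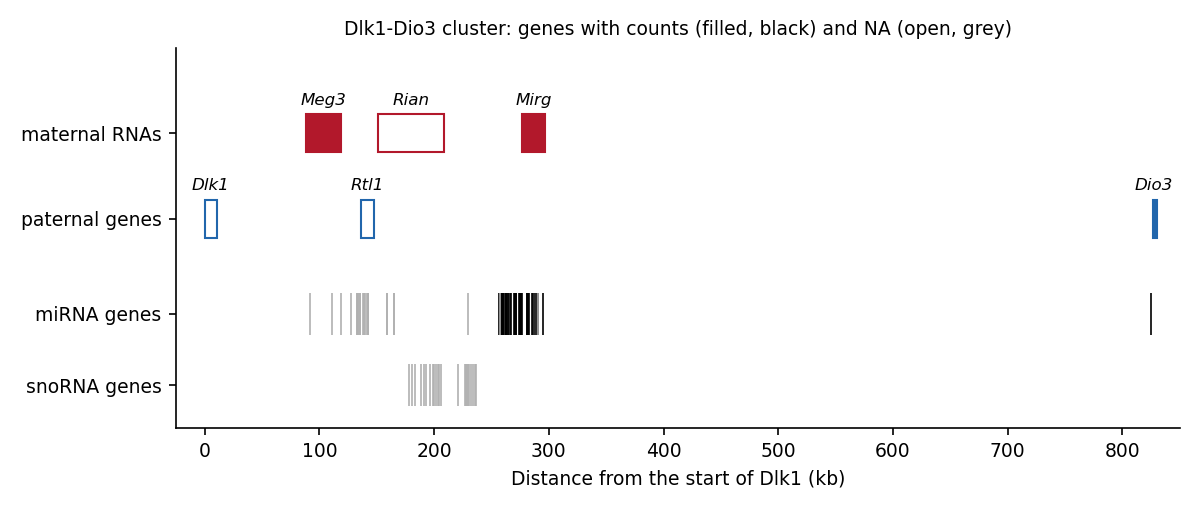
Positions of the 6 genes and of the small RNA genes, as distance in kb from the start of Dlk1. Filled boxes and black ticks mark genes with counts, open boxes and grey ticks genes that were NA: of the 6, Meg3, Mirg and Dio3 had counts.

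The sequences most tied to these results are the start of Meg3, the gene with the widest range of levels, and microRNAs made from the maternal RNAs. RefSeq (GRCm38.p6) gives the window chr12:109540746-109541045 on the plus strand, from 250 bases before the Meg3 start to 50 bases after it. Capitals mark the motifs searched on both strands: the cyclic AMP response element TGACGTCA, the CCAAT box, and the TATA box TATAAA, which occurs on both strands at overlapping positions. 
Meg3 start: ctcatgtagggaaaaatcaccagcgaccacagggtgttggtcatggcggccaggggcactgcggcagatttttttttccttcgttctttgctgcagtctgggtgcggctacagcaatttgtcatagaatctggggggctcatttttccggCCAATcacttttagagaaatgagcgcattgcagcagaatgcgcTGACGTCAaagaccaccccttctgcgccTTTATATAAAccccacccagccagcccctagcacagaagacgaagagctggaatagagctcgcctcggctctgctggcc
The response element begins 57 bases before the start and is found in 1.79% of 32851 such windows of mouse genes, against 37.4% for CCAAT and 13.6% for TATAAA. The Meg3 window holds 13 CpG sites, where the median window holds 7. The Dio3 window, whose RefSeq start lies 162 bases inside the annotated gene, has no TGACGTCA. It holds 25 CpG sites, CCAAT on either strand, 1 TATAAA, and the GC box GGGCGG at 4 positions over both strands, a motif found in 35.7% of windows. These matches describe letters in a window and say nothing of which factors bind.

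RefSeq places 58 microRNA hairpins between Dlk1 and Dio3, 1 of them inside Meg3, 3 inside Rian, 14 inside Mirg and 6 opposite Rtl1. The microRNA inside Meg3 is shown first, followed by miR-134 from Mirg, known for repressing the ROCK target Limk1 in dendrites, and by a pair from Mirg that share their seed, bases 2 to 8, in capitals. 
mmu-miR-770-5p: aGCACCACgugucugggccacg
mmu-miR-134-5p: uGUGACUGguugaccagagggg
mmu-miR-453: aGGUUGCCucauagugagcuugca
mmu-miR-496a-5p: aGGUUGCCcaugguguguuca
They stand in the hosts at chr12:109563710-109563731, chr12:109734145-109734166, chr12:109735669-109735692 and chr12:109739132-109739152, all on the plus strand. No level of any mature microRNA can be read from these libraries, and only the host RNAs were measured.

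Meg3, the first maternal RNA, was low in every KO library and higher in every WT library. In vehicle, the WT libraries held 632, 220 and 585 Meg3 counts (lines 1 to 3) and the KO libraries 72, 67 and 42. With inhibitor, the WT libraries held 687, 439 and 13619 counts and the KO libraries 21, 53 and 12. In CPM, counts relative to library size with TMM scaling between libraries, the WT vehicle libraries averaged 16.5 ± 6.97 and the KO vehicle libraries 2.39 ± 0.660 (mean ± SD, n = 3 each). With inhibitor, WT libraries averaged 163 ± 249 and KO libraries 0.857 ± 0.601 (n = 3 each). The WT inhibitor mean rests on line 3, at 450 CPM, and the remaining pair of lines held 22.6 and 16.4 CPM. The lowest WT library, line 2 in vehicle, had 8.57 CPM, and the highest KO library, also line 2 in vehicle, had 2.90 CPM. So the genotypes did not overlap, which 0.505% of 15443 tested genes showed in the same direction over all 12 libraries. Leaving out the WT inhibitor library of line 3, the median of the 5 WT libraries was 19.1 CPM and that of the 6 KO libraries 1.59 CPM, a 12.01-fold difference. In bulk RNA, fewer cells with Meg3 and less Meg3 RNA per cell cannot be told apart.

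**Figure D2:**
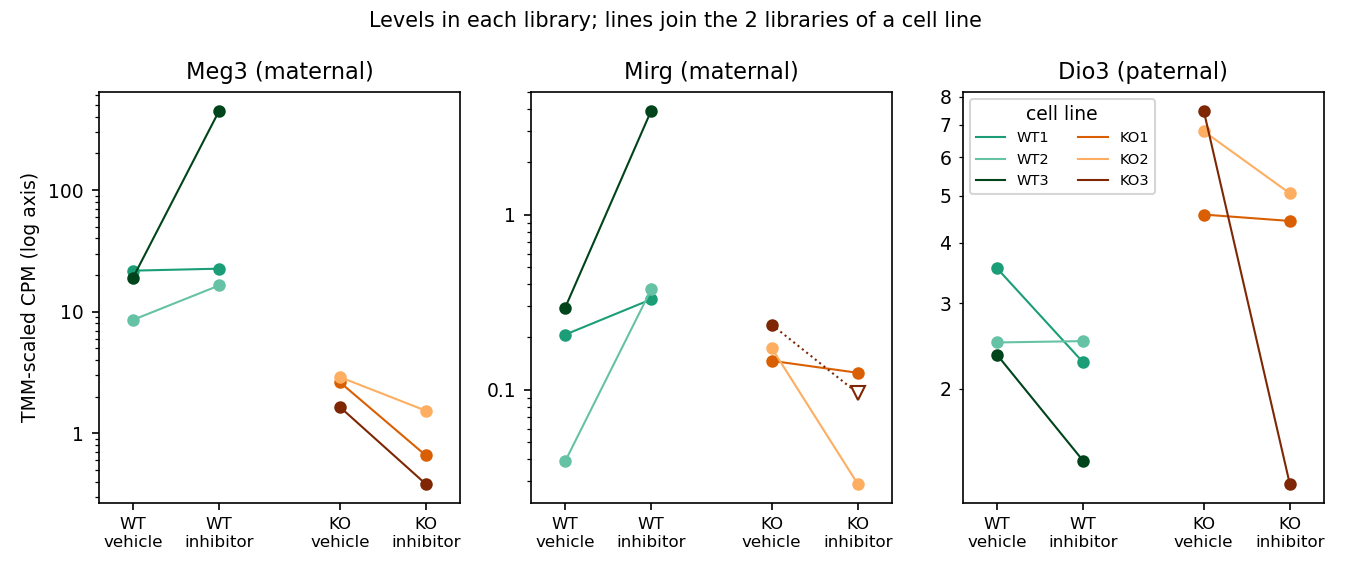
TMM-scaled CPM (log axis) of Meg3, Mirg and Dio3 in each library, with a line joining the vehicle and inhibitor libraries of each cell line. The open triangle marks 0 Mirg counts, drawn at the level of 3 counts. The WT inhibitor library of line 3 lies at 450 CPM for Meg3 and 3.93 CPM for Mirg, while Dio3 there is 1.42 CPM.

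No gene passed in edgeR's quasi-likelihood test of KO against WT in vehicle (0 of 15443 genes, 0%, at an adjusted p below 0.05), with 307 genes at an unadjusted p below 0.05. DESeq2 called 11 genes (0.0718%). For Meg3 the log2 fold change was -2.78 ± 1.16 (SE; 95% interval from -5.37 to -0.20; edgeR adjusted p of 0.999). In vehicle, 4.9% of tested genes lay lower in KO without overlap. With inhibitor it was -7.55 ± 1.43 (95% interval from -10.74 to -4.37; edgeR adjusted p of 0.856). Again 0 genes passed (0%; 540 at an unadjusted p below 0.05, and 18 in DESeq2, 0.118%), and 7.03% of genes lay lower in KO without overlap. DESeq2 gave no p for Meg3 in either comparison. With WT vehicle line 2 left out, the differences were -3.10 ± 1.26 in vehicle and -7.50 ± 1.46 with inhibitor (edgeR adjusted p of 1.00 and 0.705). Without both inhibitor libraries of line 3 they were -2.78 ± 0.44 in vehicle (edgeR adjusted p of 0.199) and -4.15 ± 0.57 with inhibitor (adjusted p of 0.234).

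When both libraries of a line were summed, the WT lines held 1319, 659 and 14204 Meg3 counts and the KO lines 93, 120 and 54. Every KO line lay below every WT line, as for 3.78% of the 16090 genes tested over line sums (TMM-scaled CPM of the sums). The log2 fold change was -5.84 ± 1.38 (edgeR adjusted p of 0.971), and -3.48 ± 0.45 without WT line 3 (adjusted p of 0.695). No gene of 16090 passed in edgeR (0%; 426 at an unadjusted p below 0.05), while DESeq2 called 87 genes (0.543%), 80 of them lower in KO (0.499%). Meg3 was among those 80, with a DESeq2 adjusted p of 0.000362, the lowest over the alternatives run, which reached 1.00. DESeq2 was not run without WT line 3, whose inhibitor library held 13619 of the line's 14204 counts.

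Markers of another cell type differed in level with genotype as well. The 9 mesenchymal markers summed to 113 to 1211 CPM in WT and 35.0 to 115 CPM in KO libraries given vehicle. With inhibitor the sums were 289 to 788 CPM and 69.3 to 128 CPM. Of these 9, 8 were lower in KO over the line sums and 1 higher, with a median log2 fold change of -2.70 where all genes had 0.04. No marker passed in edgeR and DESeq2 called 5. Among WT libraries, line 2 in vehicle had a mesenchymal sum of 1211 CPM with 8.57 CPM of Meg3, line 3 with inhibitor 788 CPM with 450 CPM of Meg3, and line 3 in vehicle 113 CPM with 19.1 CPM of Meg3. The part of these cells in the Meg3 difference was not tested.

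Mirg, the maternal host of microRNAs, was near the limit of detection except in 1 library. The WT libraries held 6, 1 and 9 Mirg counts in vehicle and 10, 10 and 119 with inhibitor (lines 1 to 3). The KO libraries held 4, 4 and 6 counts in vehicle and 4, 1 and 0 with inhibitor. In vehicle the genotypes overlapped, averaging 0.180 ± 0.130 CPM for WT and 0.185 ± 0.0456 CPM for KO (n = 3 each). With inhibitor they did not overlap, as for 7.03% of the 15443 tested genes, among which Mirg was not. The means were 1.55 ± 2.07 CPM for WT and 0.0513 ± 0.0654 CPM for KO (n = 3 each), from at most 4 counts in a KO library. The library with 0 counts allows up to 3 counts, or 0.0954 CPM, from counting error alone. With all libraries included, Mirg passed the filter on low counts over line sums and not in the 12-library fit. The WT lines held 16, 11 and 128 counts and the KO lines 8, 5 and 6. The log2 fold change there was -2.94 ± 1.04 (edgeR adjusted p of 0.998), and -1.10 ± 0.37 without WT line 3 (adjusted p of 1.00). DESeq2 did not call it either (adjusted p of 0.518).

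Dio3, the paternal gene with counts, lay the other way. In vehicle, the WT libraries held 103, 64 and 72 counts and the KO libraries 125, 157 and 191. The WT libraries averaged 2.80 ± 0.652 CPM and the KO libraries 6.29 ± 1.52 CPM (n = 3 each), with no overlap, as for 7.62% of tested genes in that direction. With inhibitor, the WT libraries held 69, 67 and 43 counts and the KO libraries 142, 175 and 40. The means were 2.07 ± 0.571 CPM for WT and 3.59 ± 2.03 CPM for KO (n = 3 each), and the groups overlapped through KO line 3, at 1.27 CPM. That is the library with few neuronal markers, and without it the KO inhibitor libraries held 4.44 and 5.06 CPM, above all 6 WT libraries. Over the 5 KO libraries left, 2.69% of tested genes lay above all 6 WT libraries.

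The log2 fold change of Dio3 between KO and WT was 1.17 ± 0.47 in vehicle (95% interval from 0.12 to 2.22; edgeR adjusted p of 0.999) and 0.80 ± 0.47 with inhibitor (95% interval from -0.25 to 1.84; adjusted p of 0.856). Without WT vehicle line 2 the vehicle difference was 1.09 ± 0.56 (edgeR adjusted p of 1.00). Leaving out KO line 3 with inhibitor, the inhibitor difference was 1.20 ± 0.31 (edgeR adjusted p of 0.481). Over line sums, where WT lines held 172, 131 and 115 counts and KO lines 267, 332 and 231, it was 1.00 ± 0.25 (edgeR adjusted p of 0.998; DESeq2 adjusted p of 0.0629, the lowest over its alternatives, which reached 1.00). Every KO line was above every WT line, as for 5.18% of the 16090 genes tested, and neither tool called Dio3.

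**Figure D3:**
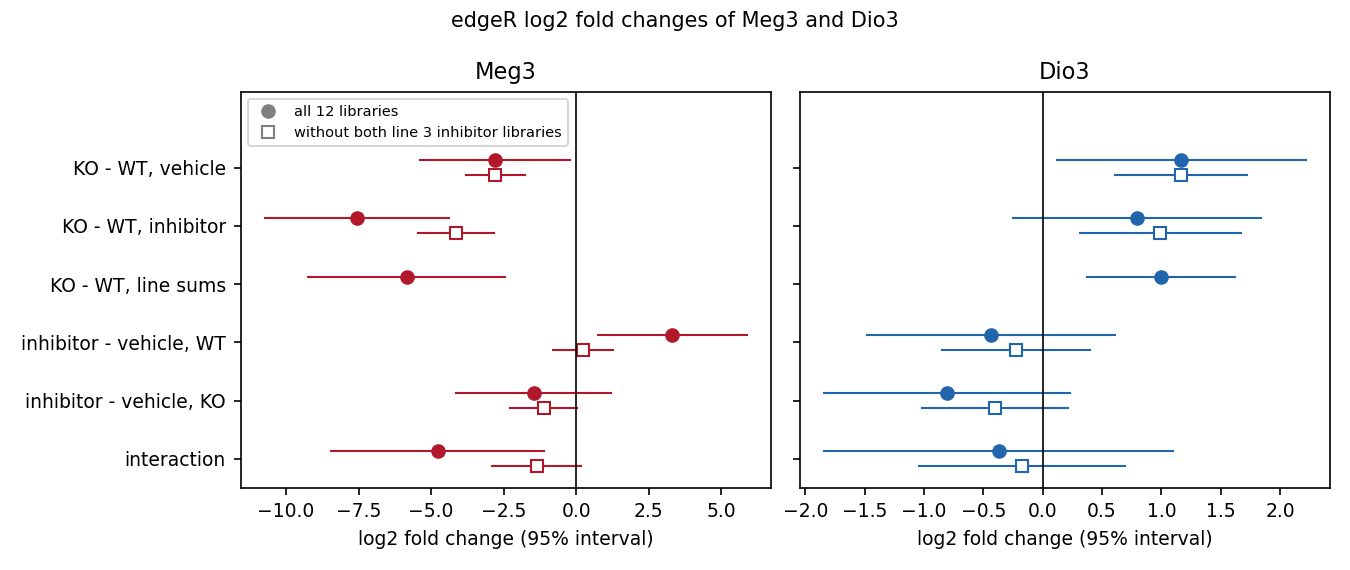
Log2 fold changes of Meg3 and Dio3 with 95% intervals (edgeR), for all libraries (circles) and without both inhibitor libraries of line 3 (squares; not computed for line sums). Meg3 lies below 0 and Dio3 above 0 in each KO against WT comparison, and the Meg3 difference with inhibitor moves from -7.55 to -4.15.

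The maternal RNAs were then set against the paternal gene in each library. The log2 ratio of Meg3 plus Mirg counts to Dio3 counts was taken, with 0.5 added to each sum. Maternal and paternal here name the known origin of these genes, and counts per gene do not show which parental copy was read. Maternal counts exceeded paternal counts in all 6 WT libraries and in none of the 6 KO libraries. The log2 ratio was 2.63, 1.78 and 3.04 in WT vehicle and -0.71, -1.14 and -1.98 in KO vehicle (lines 1 to 3). With inhibitor it was 3.33, 2.74 and 8.30 in WT and -2.48, -1.69 and -1.70 in KO. In vehicle it averaged 2.48 ± 0.640 over WT and -1.28 ± 0.645 over KO libraries, and with inhibitor 4.79 ± 3.06 and -1.96 ± 0.457 (n = 3 each). KO line 3 with inhibitor, low in both Meg3 and Dio3, had nearly the same ratio as KO line 2 with inhibitor. WT line 3 with inhibitor held 13738 counts of Meg3 plus Mirg and 43 of Dio3, the ratio furthest from even of the 12.

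Counts favour long genes, and the deposited cRPKM values, reads per length and depth, order the genes otherwise. Dividing counts by cRPKM and depth gives the length used for each gene, a median of 14.4 kb for Meg3, 1.22 kb for Mirg and 1.98 kb for Dio3. In WT vehicle, Dio3 was at 1.42 ± 0.355 cRPKM and Meg3 at 1.16 ± 0.508, which does not separate them beyond their spread, with Mirg below at 0.150 ± 0.111. In KO vehicle, Dio3 was at 3.12 ± 0.773 cRPKM, above Meg3 at 0.163 ± 0.0473 and Mirg at 0.150 ± 0.0361, which did not differ beyond their spread. In KO inhibitor libraries Dio3 led with 1.82 ± 0.996 cRPKM, with Meg3 at 0.0600 ± 0.0361 and Mirg at 0.0400 ± 0.0529. In WT inhibitor libraries Meg3 was at 1.57, 1.13 and 30.96 cRPKM, Mirg at 0.27, 0.30 and 3.20 cRPKM and Dio3 at 1.15, 1.25 and 0.71 cRPKM (lines 1 to 3). Per length, the log2 ratio of maternal to paternal RNA averaged -0.23 ± 0.711 for WT and -3.28 ± 0.364 for KO neurons in vehicle. With inhibitor the ratio was 0.68, 0.19 and 5.59 in the WT lines and averaged -4.27 ± 0.313 over the KO libraries (n = 3), so that the WT mean of 2.15 ± 2.98 (n = 3) rests on line 3. With the lengths behind the deposited cRPKM, the excess of maternal RNA in WT vehicle is thus one of counts and not of level per length. A shorter Meg3 length would raise its level per length, and which Meg3 transcripts the reads came from was not tested. The order of the genotypes is the same on both scales.

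**Figure D4:**
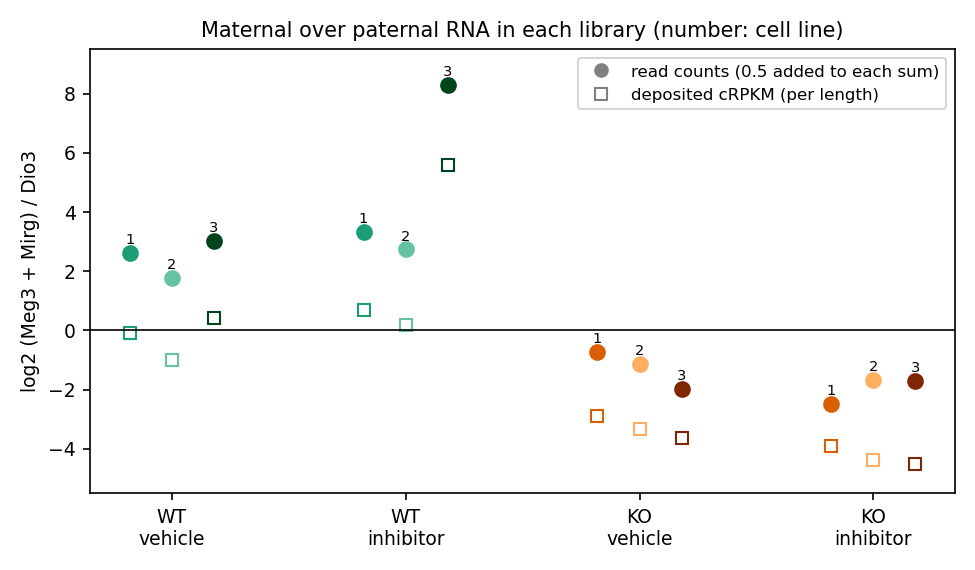
Log2 ratio of maternal (Meg3 plus Mirg) to paternal (Dio3) RNA in each library, from counts (circles) and from deposited cRPKM (open squares), with the cell line as number. By counts the WT libraries lie between 1.78 and 8.30 and the KO libraries between -2.48 and -0.71.

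Between vehicle and inhibitor, Meg3 differed in opposite directions in the genotypes, in libraries that the genotype comparisons above also use. Within each WT line Meg3 was higher with inhibitor, by 1.04-fold, 1.92-fold and 23.6-fold (lines 1 to 3), and within each KO line lower, by 4.01-fold, 1.89-fold and 4.32-fold. WT line 1 was thus all but level, and line 3 carried the mean. In either genotype, the folds of lines 2 and 3 each use 1 of the pair of libraries that were most like each other. The KO inhibitor libraries all lay below the KO vehicle libraries, as did those of 5.65% of tested genes, while the WT groups overlapped. The same pattern, higher in 3 of 3 WT lines and lower in 3 of 3 KO lines, was found in 203 of 15443 tested genes (1.31%). Mirg had it too by CPM, on counts of 0 to 10 outside WT line 3. KO line 1 held 4 Mirg counts with either treatment, so its lower level with inhibitor (0.125 against 0.146 CPM) came from scaling alone. Dio3 was lower with inhibitor in WT lines 1 and 3 and level in line 2 (2.49 and 2.51 CPM), and lower in all 3 KO lines, by 1.03-fold, 1.34-fold and 5.89-fold.

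In WT neurons the log2 fold change of Meg3 with inhibitor was 3.31 ± 1.15 (edgeR adjusted p of 1.00), and 0.24 ± 0.56 without the inhibitor library of line 3. With the cell line as a block it was 1.69 ± 0.94 (edgeR adjusted p of 1.00). In KO neurons it was -1.47 ± 1.20 (edgeR adjusted p of 0.532), and -1.11 ± 1.57 without the inhibitor library of line 3 (adjusted p of 1.00). The interaction, the KO response minus the WT response, was -4.77 ± 1.64 (edgeR adjusted p of 0.808), -1.72 ± 0.77 without the WT inhibitor library of line 3 and -3.32 ± 1.32 with the block (adjusted p of 0.929). For Dio3 the response was -0.44 ± 0.47 in WT and -0.81 ± 0.47 in KO (edgeR adjusted p of 1.00 and 0.477), and the interaction -0.37 ± 0.66 (adjusted p of 0.844). Without KO line 3 with inhibitor the KO response of Dio3 was -0.40 ± 0.31 and the interaction 0.034 ± 0.41 (edgeR adjusted p of 1.00 for both), with its sign reversed. No gene passed in edgeR in these comparisons (0% each; 47, 1088 and 185 genes at an unadjusted p below 0.05 in WT, KO and the interaction), and DESeq2 called 0 in each.

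The WT inhibitor library of line 3 was looked at against the median of the 5 remaining WT libraries, over all 15443 genes (medians below 0.1 CPM set to 0.1). Meg3 was 23.6-fold higher there, a ratio reached or passed by 3 genes, Meg3 included (0.0194%). Among them, and named after its values were seen, was Gm27000, a noncoding RNA of the X chromosome, at 39.9 CPM against a median of 1.41 CPM. Mirg was 13.4-fold higher in that library, and Dio3 was at 0.570 of the median. The vehicle library of the same line held 19.1 CPM of Meg3, within the range of the remaining WT libraries. In the inhibitor library of line 3, progenitor markers summed to 408 CPM and mesenchymal markers to 788 CPM. The sums were 441.1 and 1211 CPM in WT vehicle line 2, and the part of these cells in the Meg3 level was not tested. Differences between lines of 1 genotype were also tested, with both libraries of a line as its replicates. No gene passed in edgeR (0%; 90 at an unadjusted p below 0.05), Meg3 and Dio3 included (adjusted p of 0.996 for both), and DESeq2 called 13 genes (0.0842%), a test in which the WT line 3 libraries, 23.6-fold apart in Meg3, count as replicates.

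Neighbouring genes were read in the same way. B830012L14Rik, inside the cluster, had too few counts to be tested. Of the other genes of the cluster and its flanks, 15 were tested, all of them in the flanks outside Dlk1 and Dio3. Of these, 0 passed in edgeR, as for all genes (0%), or in DESeq2, which called at most 0.543% of all genes in a comparison. Over line sums 11 were higher and 4 lower in KO. Their median log2 fold change was 0.04, as it was for all genes (0.04, with 60.7% of genes above 0). Begain, 473 kb before the start of Meg3, was at -0.07 ± 0.22, and Ppp2r5c, the tested gene that follows Dio3, at 0.06 ± 0.09 (edgeR adjusted p of 0.998 for both). Yy1, a zinc finger transcription factor, was at 0.21 ± 0.21, and Wars, a tRNA synthetase, at 0.29 ± 0.35. Degs2, a sphingolipid enzyme, was at 2.69 ± 1.46 (edgeR adjusted p of 0.998), from a level of 12.8 CPM in KO line 3 with inhibitor against a median of 0.301 CPM over the 12 libraries. All 3 turned without KO line 3, to -0.07 ± 0.08 for Yy1, -0.22 ± 0.12 for Wars and -0.50 ± 0.60 for Degs2.

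**Figure D5:**
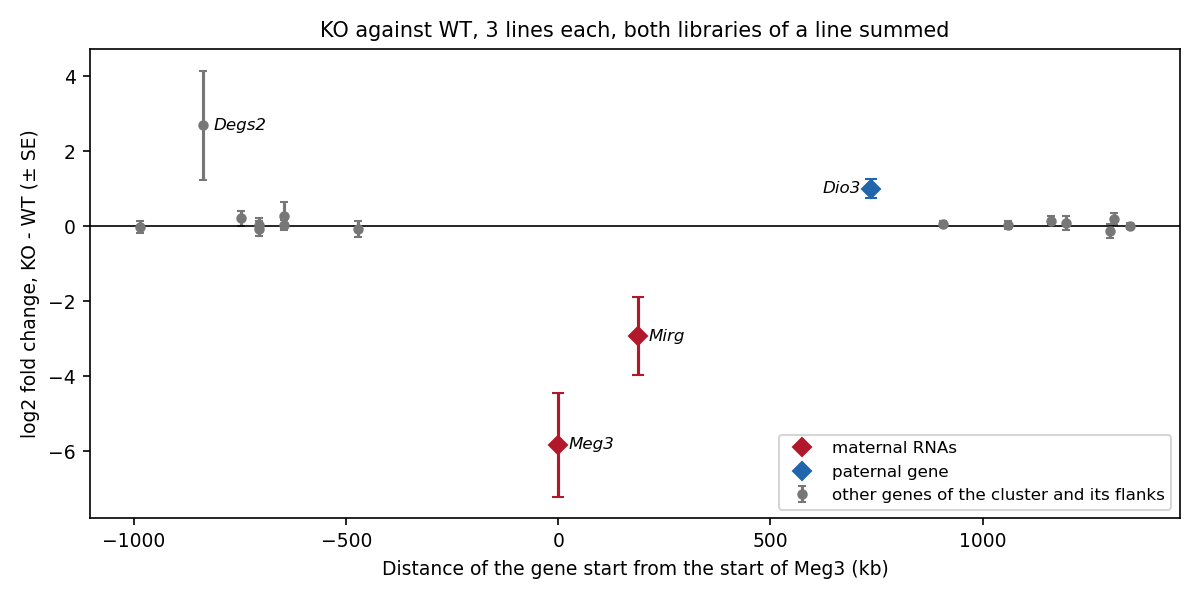
Log2 fold change between KO and WT over line sums (± SE), by distance of each gene's start from that of Meg3 in kb. The maternal RNAs lie at -5.84 (Meg3) and -2.94 (Mirg) and paternal Dio3 at 1.00. Of the 15 other tested genes, all in the flanks, 14 lie between -0.13 and 0.29 and Degs2 at 2.69.

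The genes whose pattern was most like Meg3 over the 12 libraries were taken from 13423 genes with a mean of at least 1 CPM. Pearson's r of log2 CPM is given as a description, since all points share their libraries and the WT inhibitor library of line 3 weighs on it. Highest was Gm27000 (r of 0.97, and 0.95 without that library), followed by Rec8, a meiotic cohesin subunit (0.91 and 0.96), and En1, a homeobox gene of the midbrain (0.88 and 0.93). Rnf44, a RING finger gene, and Fap, a protease of activated fibroblasts, came next (0.88 each, and 0.84 and 0.83). Without that library Rec8 came first, and Asb4 and Mast2 (0.93 and 0.90) stood among the 5 highest in place of Rnf44 and Fap, which ranked 26 and 31. Gm27000 and Fap reached a mean of 1 CPM only through that library, averaging 0.667 and 0.740 CPM over the remaining 11. Gm27000 had 41, 14 and 54 counts in the vehicle libraries of WT lines 1 to 3 and 56, 32 and 1207 with inhibitor. The KO lines held 4, 5 and 1 counts in vehicle and 0, 3 and 3 with inhibitor. Rec8 spanned 19.1 to 31.2 CPM over the WT and 8.37 to 17.7 CPM over the KO libraries, and En1 7.41 to 10.1 CPM and 2.19 to 4.72 CPM. For Dio3, the closest was Dr1, a repressor of transcription (r of 0.94), and without KO line 3 with inhibitor it was Zfp37, a zinc finger gene (r of 0.96).

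The pathways these genes belong to showed no called member. In these comparisons edgeR called 0% of all genes and DESeq2 at most 0.543%. With so few calls, 0 in a list does not show that its genes were unchanged, here or in the lists below. Over line sums 60.7% of all genes lay higher in KO, against 48.3% in vehicle, 49.9% with inhibitor and 48.5% over line sums without KO line 3. Of 30 genes of imprint maintenance and DNA methylation, 28 were tested over line sums and 0 passed in edgeR or DESeq2, with 20 higher and 8 lower in KO and a median log2 fold change of 0.04. With KO line 3 left out, 10 were higher and 18 lower (median of -0.02). In vehicle 10 were higher and 17 lower (median of -0.05), and with inhibitor 18 and 9 (0.07). The members with the widest differences over line sums were Zfp568, a zinc finger repressor (0.76 ± 0.97), and the Polycomb genes Ezh2 (0.51 ± 0.84) and Eed (0.35 ± 0.45), none of which passed (edgeR adjusted p of 0.998). Their highest level was in KO line 3 with inhibitor, the library that stood apart, at 83.7, 48.0 and 42.7 CPM. All 3 turned once KO line 3 was left out, to -0.99 ± 0.57, -0.80 ± 0.60 and -0.30 ± 0.20.

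All 33 genes of the Notch pathway, to which Dlk1 is related, were tested and 0 passed. Over line sums 21 were higher and 12 lower in KO (median of 0.08), and without KO line 3, 8 were higher and 25 lower (median of -0.12). In vehicle 10 were higher and 23 lower (median of -0.17), and with inhibitor 23 and 10 (0.25). Hey2 and Hes1, transcriptional targets of Notch, were at 1.06 ± 1.08 and 0.61 ± 1.07 over line sums, and Adam10, a protease that cleaves Notch, at 0.52 ± 0.71. They turned to -0.74 ± 0.76, -1.29 ± 0.71 and -0.64 ± 0.40 without KO line 3. Hes1 averaged 5.49 ± 4.01 CPM over the 6 WT libraries and 2.03 ± 1.43 CPM over 5 KO libraries, with 35.4 CPM in KO line 3 with inhibitor.

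In the thyroid hormone pathway, in which Dio3 acts, 24 of 26 genes were tested over line sums and 0 passed, with 17 higher and 7 lower in KO (median of 0.08). Without KO line 3, 14 were higher and 10 lower (median of 0.02). In vehicle 9 were higher and 14 lower (median of -0.06), and with inhibitor 15 and 8 (0.06). Ttr, a carrier of the hormone, was at 1.44 ± 1.48 and Thrsp, a hormone-responsive gene, at 1.02 ± 0.89 over line sums, and without KO line 3 they turned to -1.47 ± 1.13 and -0.70 ± 0.29. Klf9, a transcription factor induced by the hormone, averaged 37.8 ± 4.80 CPM over the 6 WT and 51.2 ± 15.1 CPM over the 6 KO libraries, with ranges that overlap. Its log2 fold change was 0.47 ± 0.17 (edgeR adjusted p of 0.998), and 0.50 ± 0.19 without KO line 3.

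Of 22 genes of small RNA processing and microRNA transcription, 20 were tested and 0 passed. Over line sums 10 were higher and 10 lower in KO (median of -0.01), and without KO line 3, 11 were higher and 9 lower (median of 0.01). The widest differences were those of Mef2c, a neuronal transcription factor (-0.27 ± 0.13), and of Lin28a and Lin28b, which block microRNA maturation (0.25 ± 1.22 and -0.13 ± 0.32). Without KO line 3, Mef2c was at -0.17 ± 0.09, while Lin28a and Lin28b turned to -1.28 ± 1.32 and 0.13 ± 0.17.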

How the data were processed

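The authors deposited, for each of 12 libraries, a table without header of Ensembl identifiers, read counts (whole numbers, not normalized) and cRPKM, an RPKM value whose correction is not explained. The build mm10 is named in the submitters' processing notes; aligner, annotation and strand setting are not given in the sources used here. The counts of any 2 libraries differed in at least 19141 genes. Symbols matched 33371 of 33560 identifiers with counts, and coordinates are from GENCODE M21 (GRCm38).

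Counts were tested with edgeR 4.0.16 in R 4.3.3 (TMM, filterByExpr, robust quasi-likelihood F test) in 1 fit of 12 libraries with a coefficient per group (15443 genes), and with both libraries of a line summed (16090 genes). Genes were called below a Benjamini-Hochberg adjusted p of 0.05, over all genes of a comparison. DESeq2 1.42.0, other scalings, no filter and left-out libraries were alternatives. The fits were tested on independent simulated counts, with a spread shared by all genes. That spread, a biological coefficient of variation of at most 0.411, was below the 0.85 of Meg3. The simulation held no line pairs and no outlying library, so it does not show how the fits perform on these genes. A floor of 3 counts covers counting error only.

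The members and lists were chosen with earlier results of these data known. From each list called members were to be named, or else the 3 with the largest log2 fold change over line sums and a mean of at least 1 CPM, and for likeness the 5 genes with the highest r with Meg3. Dlk1 had no counts, so its likeness and its ratio to Meg3 were replaced by Dio3. The labels pair vehicle and inhibitor libraries by cell line; deviations from group means correlated from -0.72 to 0.57 between them. List values without KO line 3 and the shares of genes whose line sums did not overlap were added after seeing the data. One gene of those highest in WT line 3 with inhibitor is not reported here.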

Additional observations from a re-analysis of the deposited data

Results flagged for a closer look

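Meg3 was higher with inhibitor in all 3 WT lines and lower in all 3 KO lines, a pattern found in 203 of 15443 tested genes (1.31%). The WT folds were 1.04, 1.92 and 23.6, the smallest of them all but level. The larger WT folds each use a library from the WT pair most like each other. The KO folds of lines 2 and 3 likewise use the KO pair, and all take the labels as given. Without the WT inhibitor library of line 3, the WT response was 0.24 on the log2 scale and the difference of the responses -1.72. With all libraries, the difference of the responses was tested as an interaction and did not pass, at -4.77 on the log2 scale (edgeR adjusted p of 0.808). Mirg showed the same directions by CPM, with KO line 1 at 4 counts under either treatment. Its interaction was -4.78 on the log2 scale without a filter on low counts. All libraries but WT line 3 with inhibitor held 0 to 10 counts.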

How the results depend on the processing

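In edgeR 0 genes passed in each comparison with TMM, RLE or library-total scaling. DESeq2 called 11 genes for KO against WT in vehicle, 18 with inhibitor, 87 over line sums and 13 between lines of 1 genotype. Without a filter on low counts, 2 genes passed over line sums. Without both inhibitor libraries of line 3, an alternative chosen after seeing the data, 4 genes passed in vehicle. When 1 library was left out, the calls between lines ranged from 0 to 3334 (without KO vehicle line 3), and those of the other comparisons stayed at 0. The Meg3 difference over line sums was called under DESeq2 alone (-5.84, adjusted p of 0.000362), which was run with all lines only. Over the edgeR alternatives it was not called. Its size ranged from -6.35 to -3.48 when 1 line was left out. The Dio3 interaction ranged from -0.70 (without KO inhibitor line 2) to 0.034 (without KO inhibitor line 3, a reversed sign). Mirg in vehicle, at 0.01 without a filter, ranged from -0.43 (without WT vehicle line 2, reversed) to 0.55 (without WT vehicle line 3), and was reversed to -0.19 without KO vehicle line 3. From cRPKM, the log2 ratio of maternal to paternal RNA moved to -0.23 in WT vehicle, -3.28 in KO vehicle and -4.27 in KO inhibitor libraries, since cRPKM divides by length. A replicate block by cell line gave 0 calls and changed no call. A block by line number, which pairs different lines across genotypes, gave a Meg3 difference of -2.65 in vehicle, -6.75 with inhibitor and -4.53 over line sums, also with 0 calls. The ratio of Meg3 to Dlk1 was not run, since Dlk1 was NA. Beyond length, the causes of these differences were not tested. Mirg, at 0 to 10 counts outside 1 library, is limited by depth.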
